A study of Mus musculus with 16 samples.

Results

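The 9 Toll-like receptor genes Tlr1, Tlr2, Tlr4, Tlr5, Tlr6, Tlr7, Tlr8, Tlr9 and Tlr13 and the co-receptor gene Cd14 were followed in bulk RNA-seq of sorted myeloid cells. These 10 genes were chosen by name from the 20200 genes of the count table, and all 10 were among the 11998 genes tested. The cells came from interface tissue, the tissue between a grafted tendon and bone, of adult male C57BL/6 wild-type mice after anterior cruciate ligament reconstruction (ACLR), and each library was a pool of several mice. The 4 populations were CD9+ macrophages (F4/80+ CD9+), CX3CR1+ macrophages (F4/80+ CX3CR1+ CD9-), F4/80− myeloid cells and neutrophils (Ly6G+ Ly6C+), the first 3 of them being CD11b+ and Ly6G-. Each population was sorted on days 1 and 14 after surgery, which gave 8 groups of 2 libraries. All groups had undergone ACLR, and cells of mice without surgery were not part of these libraries.

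Toll-like receptors recognise conserved parts of microbes and molecules set free by damaged tissue, and signal to NF-κB, AP-1 and interferon regulatory factors. Tlr1, Tlr2, Tlr4, Tlr5 and Tlr6 sit at the cell surface, where Tlr2 pairs with Tlr1 or Tlr6 to sense lipopeptides, Tlr4 senses lipopolysaccharide together with Cd14 and Ly96 (MD-2), and Tlr5 senses flagellin. Tlr7 and Tlr8 (single-stranded RNA), Tlr9 (CpG DNA) and Tlr13 (bacterial ribosomal RNA) act in endosomes, to which they are brought by Unc93b1. Monocytes, macrophages and neutrophils are the classical carriers of these receptors in injured tissue.

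Total counts per library ranged from 10587857 to 19814119 on day 1 and from 9233952 to 12721779 on day 14. The lowest count of a receptor gene in a library was 14 (Tlr9, neutrophils on day 14), and the highest was 27514 (Cd14, neutrophils on day 1). Levels are given as CPM, counts scaled to a common library size with TMM factors, with both libraries of a group named in the order of their replicate numbers. The 2 day 1 libraries of CD9+ macrophages were less alike (Pearson's r of log2 CPM across genes 0.935) than the pairs of the other groups (0.976 to 0.988), so that the calls resting on them were repeated without either library. The summed level of 8 neutrophil markers was 11700 and 3620 CPM in these 2 libraries, 8610 to 13200 CPM in CD9+ macrophages on day 14, 450 to 541 CPM in CX3CR1+ macrophages, 21800 to 28000 CPM in F4/80− cells and 29800 to 70300 CPM in neutrophils. Ly6g, the gene of the sorting marker, averaged 103 CPM in neutrophils on day 1 and 277 CPM on day 14, against at most 9.17 CPM elsewhere. The sums of the other populations thus came almost entirely from the other markers of the list. The part of neutrophil-like cells in the receptor levels of these populations was not tested. Adgre1, which encodes F4/80, averaged 140 to 181 CPM in the F4/80+ populations and 9.05 to 11.1 CPM in F4/80− cells.

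All 10 genes are shown with their position in mm10. Tlr1 (chr5:64924679-64933563) and Tlr6 (chr5:64952031-64960097) are neighbours on the minus strand, 18467 bases apart, and Tlr8 (chrX:167242696-167264329) and Tlr7 (chrX:167304929-167330558) are neighbours on the minus strand of the X chromosome, 40599 bases apart. Tlr13 (chrX:106143204-106160493) also lies on the X chromosome, on the plus strand. Tlr2 (chr3:83836272-83841767) and Cd14 (chr18:36725074-36726736) are on the minus strand, while Tlr4 (chr4:66827584-66930284), Tlr5 (chr1:182954788-182976044) and Tlr9 (chr9:106222598-106226883) are on the plus strand. No exon of these genes overlaps an exon of another annotated gene. The coding sequence lies on 1 or 2 exons in 9 of the 10 genes, as it does in 22.8% of 21866 protein-coding genes; the exception is Tlr4, with 3 coding exons.

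Tlr1 and Tlr6 are so similar that reads could be assigned to the wrong gene or lost. Their coding sequences were identical at 74.8% of aligned bases and shared an unbroken stretch of 229 bases, from coding base 1468 to 1696 of Tlr1 and from 1507 to 1735 of Tlr6. Of the 50-base stretches of the Tlr1 transcript, 13.6% also occurred in Tlr6, while none of the other pairs of the 10 genes shared a stretch of this length. How reads that align to several places were counted is not given in the sources used here, and the levels of Tlr1 and Tlr6 are therefore less certain than those of the other genes.

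RefSeq start sites (GRCm38.p6) were available for 7 of the 10 genes, namely Tlr1, Tlr2, Tlr5, Tlr6, Tlr8, Tlr9 and Tlr13. Windows from 250 bases before to 50 bases after each start were searched on both strands for the PU.1 core GAGGAA, the AP-1 motif TGANTCA, the interferon-stimulated response element (ISRE) and the kappaB motif. Over all 32851 promoters these motifs occurred in 28.3%, 7.81%, 3.44% and 8.46% of the windows. The stretches before the annotated gene start are printed for 3 receptors whose mRNA fell in both CD9+ macrophages and neutrophils, Tlr1, Tlr2 and Tlr9, and for Tlr8, which was called over time in no population. Each is written from 5′ to 3′ in the direction of the gene, with motif matches in capitals.
Tlr1, chr5:64933564-64933808, minus strand: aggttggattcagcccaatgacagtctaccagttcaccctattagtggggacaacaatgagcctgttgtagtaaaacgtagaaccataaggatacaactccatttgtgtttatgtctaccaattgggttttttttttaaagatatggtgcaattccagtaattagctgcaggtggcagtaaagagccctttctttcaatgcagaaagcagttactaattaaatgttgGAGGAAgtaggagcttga
Tlr2, chr3:83841768-83841858, minus strand: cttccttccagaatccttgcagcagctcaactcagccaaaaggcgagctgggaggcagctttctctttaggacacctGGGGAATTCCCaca
Tlr9, chr9:106222348-106222597, plus strand: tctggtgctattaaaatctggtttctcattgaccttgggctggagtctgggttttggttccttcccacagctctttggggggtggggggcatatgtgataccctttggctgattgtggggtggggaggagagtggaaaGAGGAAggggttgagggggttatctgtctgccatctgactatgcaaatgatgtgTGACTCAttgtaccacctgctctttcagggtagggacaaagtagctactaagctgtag
Tlr8, chrX:167264330-167264579, minus strand: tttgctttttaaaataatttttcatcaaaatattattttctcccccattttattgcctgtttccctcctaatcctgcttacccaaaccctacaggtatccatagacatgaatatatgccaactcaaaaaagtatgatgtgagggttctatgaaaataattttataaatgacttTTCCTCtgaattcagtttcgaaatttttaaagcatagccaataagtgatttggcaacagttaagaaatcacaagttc
The capitals of Tlr2 are 2 overlapping kappaB matches on the gene's strand, and a further kappaB match of its window lies closer to the start, at base -8, outside the stretch shown. Tlr1 holds GAGGAA at base -23, and Tlr9 holds GAGGAA at base -112 followed by an AP-1 match at base -58. The Tlr9 window also holds GAGGAA on the opposite strand at base 12 after the start, outside the stretch shown. In Tlr8 the capitals mark GAGGAA on the opposite strand, at base -77. Tlr13 had GAGGAA at base -83, Tlr6 had 2 ISRE matches at bases -110 and -116 of its downstream start, overlapping each other and lying on the opposite strand, and Tlr5 had no match. These matches describe the letters of the windows only.

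To compare genes with each other, CPM was divided by the exonic length of the gene in kb. On this scale Cd14, Tlr2 and Tlr13 were the 3 highest genes, in this order, in all 8 groups. In neutrophils on day 1 the mean level was 1280 CPM per kb for Cd14, 220 for Tlr2 and 159 for Tlr13, and the next gene, Tlr4, stood at 22.9. In F4/80− cells on day 14, the group in which these 3 were lowest, they stood at 29.3, 14.0 and 7.84 CPM per kb. Tlr9 changed its place most: it was the lowest of the 10 genes in neutrophils on both days (2.75 and 0.467 CPM per kb) and ranked behind only Cd14, Tlr2 and Tlr13 in CX3CR1+ macrophages on day 14 (25.4 CPM per kb), where Tlr8 and Tlr7 were close to it at 24.7 and 24.2 CPM per kb. Tlr5 was the lowest gene in CX3CR1+ macrophages and F4/80− cells on both days, with 0.859 to 4.09 CPM per kb on day 1.

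**Figure D1:**
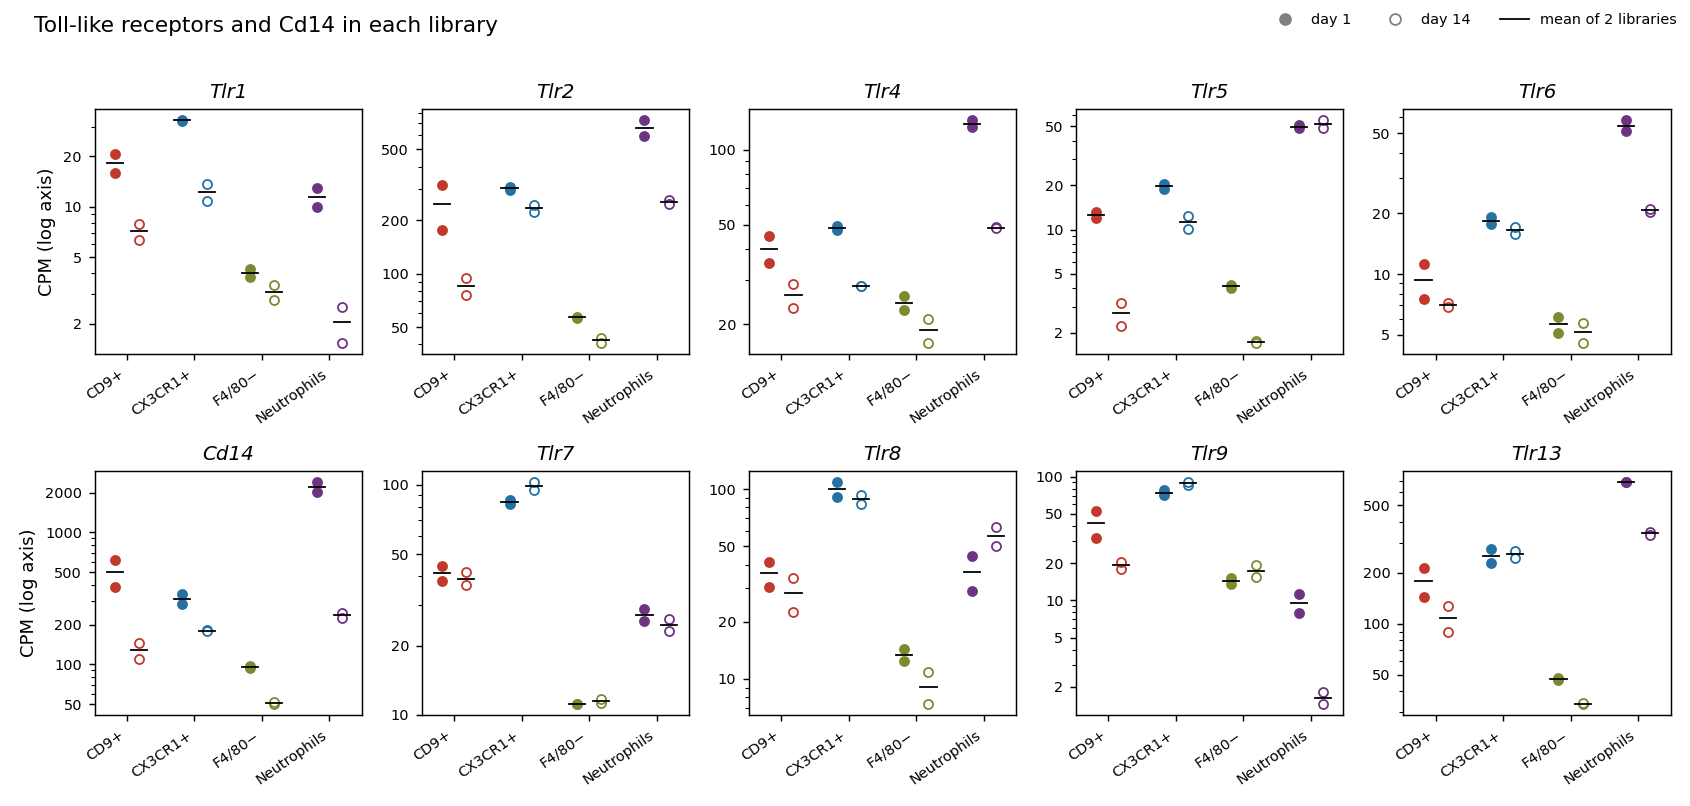
CPM of the 10 genes (log axis, one panel per gene) in each library of the 4 populations, with filled points for day 1, open points for day 14 and a line at the mean of 2 libraries. Cd14, Tlr2, Tlr4, Tlr6 and Tlr13 were highest in the neutrophil libraries of day 1, and Tlr7 and Tlr9 in the CX3CR1+ libraries of day 14.

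Levels on days 1 and 14 were compared within each population to see how receptor expression moved between the early phase and the phase of repair. A gene was called when its adjusted p from edgeR's quasi-likelihood test was under 0.05 and its log2 fold change was at least 1 in size. Every call among the receptor genes was a decrease. In neutrophils 7 of the 10 genes fell, while 10.9% of all tested genes were lower, and in CD9+ macrophages 5 of the 10 fell, while 3.48% of all tested genes were lower. In CX3CR1+ macrophages only Tlr1 was called (3.47% of all tested genes lower), and in F4/80− cells only Tlr5 (2.24% lower). The median log2 fold change of the 10 genes was -1.39 in neutrophils, -0.93 in CD9+ macrophages, -0.28 in CX3CR1+ macrophages and -0.41 in F4/80− cells, while the medians over all tested genes lay between -0.016 and 0.031. In such bulk libraries a smaller share of expressing cells and less mRNA per cell cannot be told apart.

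Cd14, which hands lipopolysaccharide to Tlr4 and also serves Tlr2, fell most in neutrophils. Its level there was 2030 and 2410 CPM on day 1 and 245 and 226 CPM on day 14, a fall by 9.43-fold (log2 fold change -3.24, SE 0.21, adjusted p = 4e-08). In CD9+ macrophages it went from 386 and 621 CPM to 110 and 146 CPM. This was a log2 fold change of -1.97 (SE 0.20, adjusted p = 1.6e-05), and without the first or the second day 1 library it was -2.28 and -1.59, called both times. The 2 days did not overlap in either population. Cd14 was also lower on day 14 in CX3CR1+ macrophages (284 and 338 CPM against 181 and 178 CPM) and in F4/80− cells (96.3 and 94.0 CPM against 49.7 and 51.7 CPM). Both differences passed the adjusted p (0.013 and 0.011), but their log2 fold changes of -0.79 and -0.91 were under the threshold.

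Tlr4, the lipopolysaccharide receptor itself, was called in neutrophils alone. There it fell from 123 and 131 CPM to 48.9 and 48.6 CPM (log2 fold change -1.38, SE 0.16, adjusted p = 1.6e-05). In the other 3 populations its log2 fold changes were -0.62 in CD9+ macrophages, -0.77 in CX3CR1+ macrophages and -0.36 in F4/80− cells. Within a library, Cd14 per kb exceeded Tlr4 per kb by a ratio of 52.9 and 59.0 in neutrophils on day 1 and of 16.1 and 14.9 on day 14. In CD9+ macrophages the day 1 ratios of 27.5 and 56.8 compared with 15.1 and 16.1 on day 14, whereas in CX3CR1+ macrophages it stayed between 19.1 and 22.0 over both days. The lowest ratios, 7.56 to 13.2, were those of F4/80− cells.

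**Figure D2:**
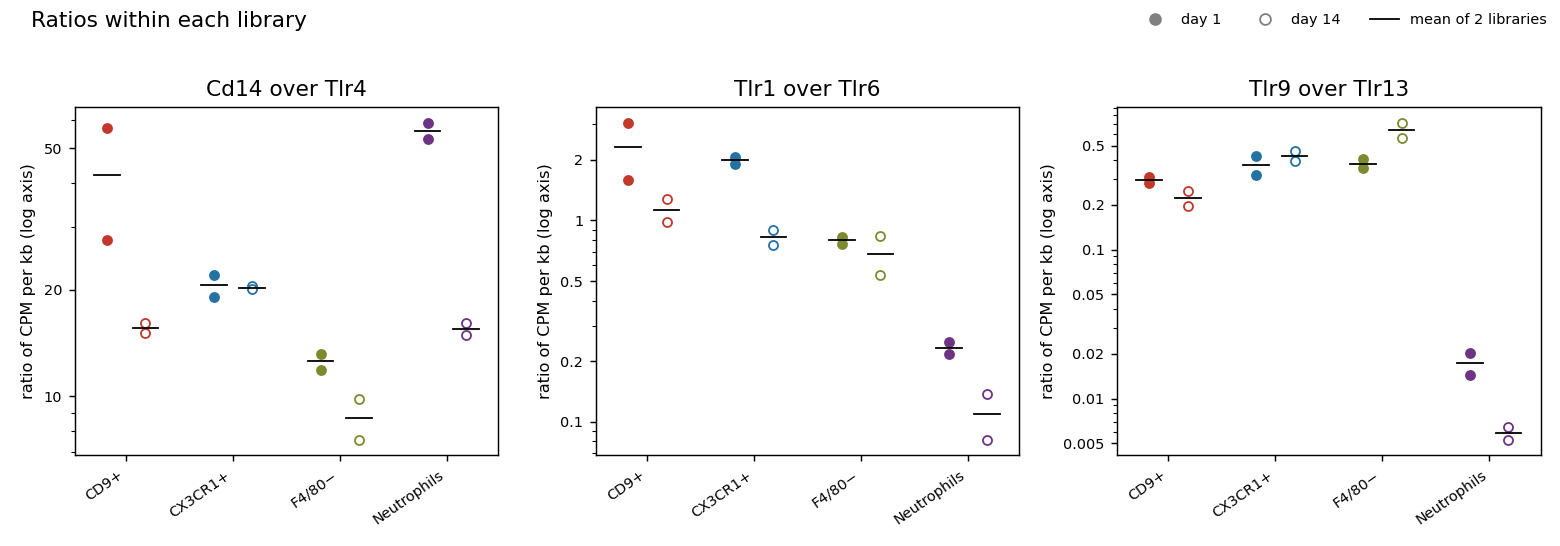
Ratios of CPM per kb (log axis) within each library for Cd14 over Tlr4, Tlr1 over Tlr6 and Tlr9 over Tlr13, with filled points for day 1 and open points for day 14. The ratio of Cd14 to Tlr4 dropped to 14.9 to 16.1 in neutrophils and CD9+ macrophages on day 14, and the ratio of Tlr1 to Tlr6 was at most 0.248 in all 4 neutrophil libraries.

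Tlr2, the shared partner of Tlr1 and Tlr6, fell in CD9+ macrophages from 177 and 315 CPM to 75.9 and 94.9 CPM (log2 fold change -1.52, SE 0.21, adjusted p = 0.00019). Without the first or the second day 1 library the value was -1.88 and -1.05, called both times. In neutrophils it went from 594 and 730 CPM to 260 and 246 CPM (log2 fold change -1.39, SE 0.20, adjusted p = 0.00012). All day 14 libraries of these populations were below all of their day 1 libraries. Tlr2 in CX3CR1+ macrophages stood at 297 and 306 CPM on day 1 and at 222 and 244 CPM on day 14, and in F4/80− cells at 57.3 and 56.2 CPM and at 43.3 and 40.8 CPM. Neither difference passed the test (adjusted p = 0.25 and 0.26).

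Tlr1 and Tlr6, the alternative partners of Tlr2, were called in 3 populations and in 1. Tlr1 fell in CD9+ macrophages, from 16 and 20.6 CPM to 6.33 and 7.91 CPM (log2 fold change -1.36, SE 0.26, adjusted p = 0.0027; -1.53 and -1.17 without the first or the second day 1 library, called both times). It also fell in CX3CR1+ macrophages, from 32.9 and 32.7 CPM to 10.8 and 13.7 CPM (log2 fold change -1.42, SE 0.25, adjusted p = 0.0016), and the changes in the 2 macrophage populations differed by 0.06 on the log2 scale (SE 0.36, adjusted p = 0.96). In neutrophils Tlr1 went from 10 and 12.9 CPM to 2.53 and 1.54 CPM (log2 fold change -2.50, SE 0.31, adjusted p = 2.3e-05). It was the single receptor gene called over time in 3 populations, and only in F4/80− cells (4.24 and 3.80 CPM against 2.76 and 3.43 CPM) was it not called.

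Tlr6 was called in neutrophils alone, where it fell from 51.2 and 58.0 CPM to 20.4 and 21.0 CPM (log2 fold change -1.40, SE 0.21, adjusted p = 0.00013). In the other populations its log2 fold changes were between -0.42 and -0.13. Per kb, Tlr1 exceeded Tlr6 in both macrophage populations on day 1, with ratios of 1.59 and 3.06 in CD9+ and 2.06 and 1.91 in CX3CR1+ libraries. On day 14 the ratios were 0.979 and 1.28 and 0.757 and 0.892. Neutrophils had the opposite order throughout, with ratios of 0.218 and 0.248 in the day 1 libraries and of 0.138 and 0.0817 in those of day 14. The part of reads from the stretch shared by both genes in these ratios was not tested.

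Tlr5, the flagellin receptor, fell in CD9+ macrophages and F4/80− cells and was not called in neutrophils, the population with its highest level. In CD9+ macrophages it went from 13.2 and 11.9 CPM to 3.17 and 2.23 CPM, the largest of the 5 decreases there (log2 fold change -2.21, SE 0.22, adjusted p = 1.6e-05), and it was called without either day 1 library (-2.14 and -2.28). In F4/80− cells it went from 4.2 and 4.03 CPM to 1.75 and 1.71 CPM (log2 fold change -1.25, SE 0.23, adjusted p = 0.0052). That call was lost without the first or the second day 14 library (-1.25 and -1.22, adjusted p = 0.063 and 0.068). In CX3CR1+ macrophages, with 20.5 and 18.7 CPM on day 1 and 10.1 and 12.4 CPM on day 14, the log2 fold change of -0.80 passed the adjusted p (0.01) but not the fold threshold. The neutrophil libraries overlapped between the days, at 48.8 and 51.1 CPM against 48.7 and 55.1 CPM (log2 fold change 0.06, SE 0.18).

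Among the endosomal receptors, Tlr9 had the largest decreases. In neutrophils it went from 11.2 and 7.90 CPM to 1.81 and 1.44 CPM, a 5.93-fold fall (log2 fold change -2.57, SE 0.32, adjusted p = 2.6e-05). In CD9+ macrophages it fell from 32.2 and 52.6 CPM to 17.9 and 20.4 CPM (log2 fold change -1.14, SE 0.22, adjusted p = 0.0031), and without the first or the second day 1 library the value was -1.46 and -0.75, the latter no longer called. In CX3CR1+ macrophages Tlr9 stood at 78.3 and 70.9 CPM on day 1 and at 85.7 and 90.9 CPM on day 14, and in F4/80− cells at 13.5 and 15.2 CPM and at 19.3 and 15.5 CPM. Day 14 was thus above day 1 in every library of these 2 populations, but the differences of 0.24 (SE 0.21) and 0.28 (SE 0.22) on the log2 scale did not pass the test (adjusted p = 0.51 and 0.54).

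Tlr13, the sensor of bacterial ribosomal RNA, was highest in neutrophils on day 1. It went there from 687 and 684 CPM to 346 and 336 CPM (log2 fold change -1.01, SE 0.18, adjusted p = 0.00071), which sits at the fold threshold. DESeq2, the other scalings, the filter of edgeR and no filter placed it at -0.98 to -0.96 and did not call it, and neither did the fits without 1 of several libraries (-0.99 to -0.98). It was -0.71 on the log2 scale in CD9+ macrophages (143 and 213 CPM against 89.7 and 128 CPM), and in CX3CR1+ macrophages the days overlapped (227 and 276 CPM against 269 and 246 CPM). Tlr7 and Tlr8, the sensors of single-stranded RNA, were called in no population. Tlr7 stood at 44.4 and 38.2 CPM and at 36.6 and 41.6 CPM on the 2 days in CD9+ macrophages, at 85.5 and 82.4 CPM and at 94.9 and 103 CPM in CX3CR1+ macrophages, and its log2 fold changes over the 4 populations lay between -0.15 and 0.24. Tlr8 was the receptor gene with the highest positive value, in neutrophils (44.4 and 29.1 CPM against 50.3 and 63.3 CPM; log2 fold change 0.63, SE 0.25, adjusted p = 0.07).

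**Figure D3:**
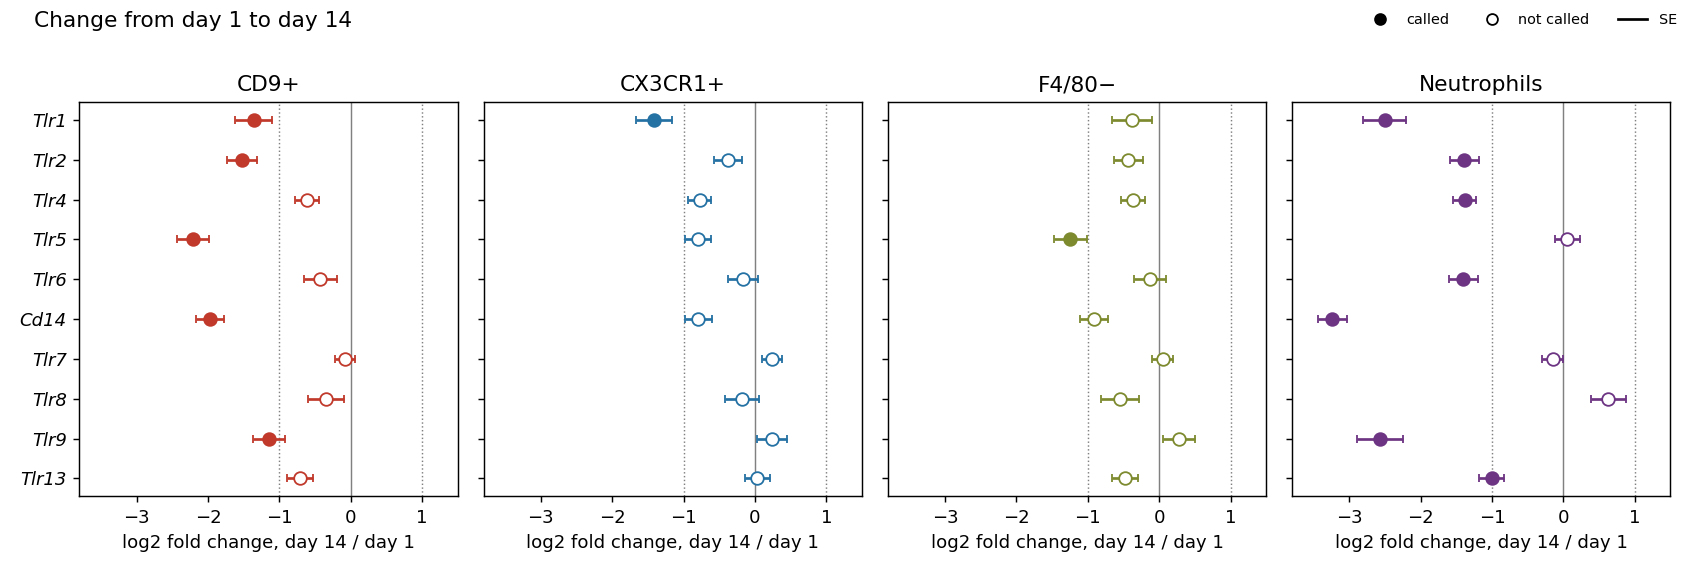
log2 fold change from day 1 to day 14 with its SE for the 10 genes in the 4 populations; filled points were called, and dotted lines mark the threshold of 1. All filled points lie left of 0, with 7 in neutrophils, 5 in CD9+ macrophages and 1 each in CX3CR1+ macrophages and F4/80− cells.

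Markers of other cells moved with some of these changes. In neutrophils the summed level of 8 macrophage markers was 590 and 592 CPM on day 1 and 183 and 188 CPM on day 14, with none of the 8 at 0, and Csf1r alone averaged 374 and 113 CPM. Monocyte markers went the other way there, from 2490 and 1740 CPM to 3770 and 3860 CPM. Neutrophil markers went from 47900 and 29800 CPM to 67300 and 70300 CPM. The part of other cells in the decreases was not tested. In CX3CR1+ macrophages of day 1, whose macrophage markers summed to 1790 and 1880 CPM, Cd14, Tlr2, Tlr4, Tlr5, Tlr6 and Tlr13 were lower than in the day 1 neutrophils. Tlr1, Tlr7, Tlr8 and Tlr9 were higher. These are levels of the sorted populations, not of other cells within the neutrophil libraries. In CD9+ macrophages 6 eosinophil markers summed to 573 and 602 CPM on day 1 and to 6250 and 10100 CPM on day 14, and 6 B cell and plasma cell markers to 85.7 and 38.7 CPM and to 192 and 156 CPM. The part of these cells in the decreases of CD9+ macrophages was not tested. In CX3CR1+ macrophages the macrophage markers summed to 1790 and 1880 CPM on day 1 and to 1250 and 1350 CPM on day 14, and 6 markers of conventional dendritic cells to 28.8 and 22.8 CPM and to 82.7 and 87.2 CPM, with none of either list at 0. Their part in the decrease of Tlr1 was not tested. Eosinophil markers summed there to 32.5 to 115 CPM, and B cell and plasma cell markers to 13.4 to 19.5 CPM.

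The change over time differed between the populations for 8 of the 10 genes by an interaction test, which 14.7% of all tested genes passed; the exceptions were Tlr7 (adjusted p = 0.45) and Tlr8 (adjusted p = 0.1). The lowest adjusted p values were those of Cd14 (6.7e-05), Tlr9 (3e-04) and Tlr5 (0.00048), and these genes and Tlr2 (0.014) passed whichever library was left out. Tlr1, Tlr4, Tlr6 and Tlr13 did not, and the count was 4 without the second day 14 library of neutrophils and 9 without the first day 1 library of CD9+ macrophages. Between the 2 macrophage populations, 4 of the 10 genes differed (2.84% of all tested genes), each with the larger decrease in CD9+ macrophages. The differences of the log2 fold changes were -1.41 for Tlr5 (SE 0.29, adjusted p = 0.015), -1.38 for Tlr9 (SE 0.31, adjusted p = 0.023), -1.18 for Cd14 (SE 0.27, adjusted p = 0.027) and -1.15 for Tlr2 (SE 0.29, adjusted p = 0.042). In fits chosen after the data were seen, Tlr5, Tlr9 and Cd14 passed without either day 1 library of CD9+ macrophages (-1.34 and -1.48, -1.70 and -0.99, and -1.48 and -0.80), whereas Tlr2 passed without the first (-1.51) and not without the second (-0.68, adjusted p = 0.062). Against CX3CR1+ macrophages, neutrophils had lower changes of Tlr9, Cd14, Tlr6, Tlr13 and Tlr2, and a higher one of Tlr5, which did not fall in neutrophils (12.3% of all tested genes passed). Against CD9+ macrophages, neutrophils had lower changes of Tlr9, Cd14 and Tlr4 and a higher one of Tlr5 (11.2% passed), Tlr4 not passing without the second day 1 library of CD9+ macrophages (0.60, adjusted p = 0.074), and against F4/80− cells 8 of the 10 genes differed (10.8% passed), Tlr7 and Tlr13 being the exceptions. CD9+ macrophages and F4/80− cells differed in Tlr9 alone (2.01% passed), and CX3CR1+ macrophages and F4/80− cells in none of the 10 (1.17% passed), with Tlr1 at an unadjusted p of 0.014. These pairwise tests share libraries with each other.

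The populations of each day were compared to place the receptors among the sorted cells. On day 1, CX3CR1+ macrophages exceeded F4/80− cells in 9 of the 10 genes (10.2% of all tested genes higher) and CD9+ macrophages exceeded them in 8 (9.23% higher), with no gene lower. The 8 calls of CD9+ macrophages were as many without either of their libraries. The differences against F4/80− cells ran from 1.71 (Cd14) to 3.02 (Tlr1) on the log2 scale for the 9 genes of CX3CR1+ macrophages and from 1.41 (Tlr8) to 2.40 (Cd14) for the 8 genes of CD9+ macrophages. Tlr4 was not called in either comparison, with 0.99 and 0.71. On day 14 the count was again 9 for CX3CR1+ macrophages (11.1% higher) and 6 for CD9+ macrophages (6.59% higher), since Tlr5 and Tlr9 were no longer called in the latter (0.64 and 0.14). Of those 6, Tlr1 (1.20) and Tlr2 (1.02) were lost without the second CD9+ library, at 1.01 and 0.82, and Tlr1 also without the first F4/80− library and Tlr2 without the second. Tlr2 stood at 0.95 to 0.99 and was not called with library totals, no filter, the filter of edgeR, DESeq2 or a fit without neutrophils, and it failed glmTreat (adjusted p = 0.1).

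CD9+ and CX3CR1+ macrophages, the 2 F4/80+ populations, were compared next. On day 1 only Tlr7 and Tlr8 were lower in CD9+ macrophages (1.88% of all tested genes lower), by -1.02 (SE 0.14, adjusted p = 0.00013) and -1.48 (SE 0.25, adjusted p = 0.00075) on the log2 scale. Tlr7 was at -0.92 and not called without the second CD9+ library, while Tlr8 was called without either (-1.27 and -1.72). This count depended on the processing. With library totals in place of TMM 5 genes were called, Tlr1 (-1.10), Tlr6 (-1.19) and Tlr9 (-1.08) in addition. Without a fold threshold 7 genes were called, and among them Cd14 was higher in CD9+ macrophages. Cd14 had the opposite sign, with 0.70 (adjusted p = 0.022), which was under the fold threshold. Its difference was 0.997 without the first CD9+ library and 0.314 without the second. On day 14, 7 of the 10 genes were lower in CD9+ macrophages (4.55% lower). The largest differences were those of Tlr9 (-2.20, SE 0.23, adjusted p = 3.5e-06) and Tlr5 (-2.05, SE 0.22, adjusted p = 6.1e-06), followed by Tlr8 (-1.65), Tlr2 (-1.45), Tlr7 (-1.34), Tlr13 (-1.25) and Tlr6 (-1.22). Tlr4 overlapped between the populations (23.3 and 29.1 CPM against 28.4 and 28.4 CPM), and Tlr1 and Cd14 were not called. Eosinophil markers summed on day 14 to 6250 and 10100 CPM in CD9+ and to 115 and 79.7 CPM in CX3CR1+ macrophages. Neutrophil markers summed to 13200 and 8610 CPM and to 450 and 541 CPM in the same order. The part of such cells in these differences was not tested.

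All 10 genes were detected in neutrophils and in macrophages, at different levels. On day 1, 6 genes were higher in neutrophils than in CX3CR1+ macrophages (24.1% of all tested genes), namely Cd14 (-2.84 as CX3CR1+ minus neutrophils), Tlr6 (-1.56), Tlr13 (-1.45), Tlr4 (-1.39), Tlr5 (-1.35) and Tlr2 (-1.13, and -0.98 and not called without the second neutrophil library). The other 4 were lower (26.9% of all tested genes), namely Tlr9 (2.96), Tlr7 (1.62), Tlr1 (1.52) and Tlr8 (1.44). The same 6 genes were higher in neutrophils than in CD9+ macrophages on day 1 (21.7% of all tested genes), and only Tlr9 was lower (27.9%), with 7 calls also without either CD9+ library. Against F4/80− cells 9 genes were higher in neutrophils (22.6%), and only Tlr9 was not called (0.58 as F4/80− minus neutrophils, adjusted p = 0.037).

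On day 14, 4 genes rather than 10 were called between neutrophils and CX3CR1+ macrophages. Tlr5 was the only gene called higher in neutrophils (20.9% of all tested genes), with -2.20 (SE 0.19, adjusted p = 7.8e-08), and Tlr9, Tlr1 and Tlr7 were lower (27.1% of all tested genes), with 5.77, 2.60 and 2.01. The differences of Tlr2 (-0.12), Tlr6 (-0.33), Tlr13 (-0.41) and Cd14 (-0.39) did not pass the test, and those of Tlr6, Tlr13 and Cd14 turned to 0.18, 0.11 and 0.12 when libraries were scaled by their totals alone. Tlr9, at 85.7 and 90.9 CPM in CX3CR1+ macrophages and at 1.81 and 1.44 CPM in neutrophils, gave the largest difference of any receptor gene in any comparison made here (SE 0.30, adjusted p = 3.6e-10). Against CD9+ macrophages of day 14, 5 genes were higher in neutrophils (19.9% of all tested genes) and Tlr9 and Tlr1 lower (29.6%). One of the 5, Tlr8 (-1.01), sat at the threshold. Its call was lost with library totals (-0.52, adjusted p = 0.059), with upper quartile scaling (-0.78), without the first CD9+ library of day 14 (-0.73) or without the second neutrophil library of day 14 (-0.84), and it stood at -0.99 without several libraries of other groups. Against F4/80− cells, 8 genes were higher in neutrophils (21.3%) and Tlr9 lower (27.4%).

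The size of the differences from neutrophils depended on the scaling. With TMM the median log2 fold change over all tested genes in the 6 comparisons with neutrophils lay between -0.023 and 0.122, and with library totals alone between 0.385 and 0.62. For CX3CR1+ macrophages against neutrophils on day 1, the calls over all genes went from 3227 higher and 2886 lower to 4599 and 1758. On that scale 5 of the 10 genes were called there in place of 10, since Tlr2, Tlr4, Tlr5, Tlr6 and Tlr13 kept their sign but stayed under the fold threshold (-0.99 to -0.56). The calls over all genes went likewise from 3344 and 2601 to 4036 and 1881 for CD9+ macrophages against neutrophils on day 1, from 3169 and 2713 to 4532 and 1492 for F4/80− cells against neutrophils on day 1, and on day 14 from 3554 and 2386 to 4725 and 1314, from 3253 and 2505 to 4536 and 1621, and from 3286 and 2556 to 4573 and 1320 for CD9+, CX3CR1+ and F4/80− cells. Among the other comparisons, CD9+ macrophages over time went from 570 and 418 to 810 and 300 (the median from 0.004 to 0.197), CD9+ against CX3CR1+ macrophages on day 1 from 763 and 225 to 613 and 501, and CD9+ macrophages against F4/80− cells on day 1 from 1108 and 739 to 802 and 1245.

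**Figure D4:**
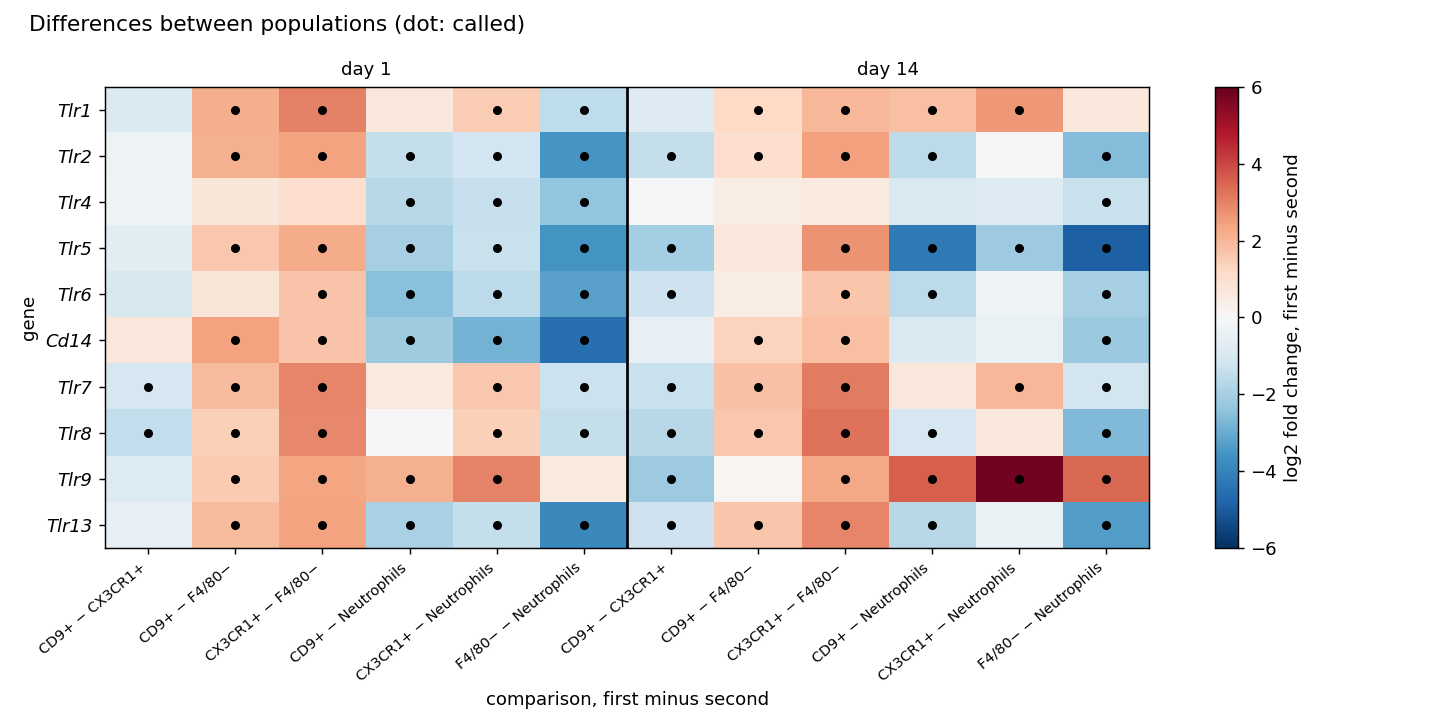
log2 fold change between populations (colour, first minus second) for the 10 genes in the 6 pairs on day 1 (left) and day 14 (right); a dot marks a called gene. The CX3CR1+ against F4/80− columns hold 9 dots on either day, and on day 14 Tlr9 alone was called lower in neutrophils than in each of the other 3 populations.

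The order of the levels over the 8 groups therefore differed by gene. For Tlr9 the CX3CR1+ libraries of both days came first (70.9 to 90.9 CPM) and their days did not pass the test against each other, followed by CD9+ macrophages on day 1. CD9+ macrophages and F4/80− cells of day 14 (17.9 and 20.4 CPM, and 19.3 and 15.5 CPM) overlapped, and neutrophils of day 14 came last. Tlr7 had the same head, with 82.4 to 103 CPM in CX3CR1+ macrophages, but its lowest group was F4/80− cells, with 11.1 to 11.7 CPM over both days, below neutrophils with 23.2 to 28.9 CPM. Plasmacytoid dendritic cells also carry Tlr7 and Tlr9. In CX3CR1+ macrophages the 5 markers of plasmacytoid dendritic cells in the table summed to 264 and 244 CPM on day 1 and to 341 and 360 CPM on day 14, with 2 of them at 0 on day 1. Siglech, a marker of this list, averaged 0 CPM on day 1 and 0.0436 CPM on day 14, so that the sums came almost entirely from the others. The part of these cells in the levels of Tlr7 and Tlr9 was not tested. In F4/80− cells Siglech averaged 1.26 CPM on day 1 and 4.25 CPM on day 14, and 6 basophil and mast cell markers summed to 763 to 1270 CPM; their part in the receptor levels of these cells was not tested.

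Tlr3, Tlr11 and Tlr12, the remaining mouse receptors, were near the limit of detection. Tlr3 had 0 to 80 counts per library, with 0 in both neutrophil libraries of day 1, Tlr11 had 0 to 74 counts, the highest being in a single CD9+ library of day 1, and Tlr12 had 0 to 31 counts. Tlr3 passed the filter on low values and was not called over time in any population, while Tlr11 and Tlr12 were not tested.

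The list of partners of the surface receptors had 8 tested genes, namely Ly96, Lbp, Cd36, Cd180, Ly86, Itgam, Hmgb1 and, although it is an endosomal receptor, Tlr3. Of these, 0 were called over time in CD9+ macrophages, CX3CR1+ macrophages and F4/80− cells. In neutrophils, where 378 of all 11998 tested genes were higher and 1311 lower, Lbp, which delivers lipopolysaccharide to Cd14, rose by 1.07 on the log2 scale and Cd180 fell by 1.30. Ly96, the partner without which Tlr4 does not bind lipopolysaccharide, was low throughout. Its mean in CX3CR1+ macrophages was 5.33 CPM on day 1 and 6.13 CPM on day 14, against 1.02 and 1.94 CPM in CD9+ macrophages, 5.26 and 3.22 CPM in neutrophils and 0.497 and 0.722 CPM in F4/80− cells. It was lower in CD9+ than in CX3CR1+ macrophages on both days (-2.43, SE 0.51, adjusted p = 0.0048, and -1.66, SE 0.49, adjusted p = 0.019).

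Cd180 (RP105) and its partner Ly86 (MD-1), which restrain Tlr4 in myeloid cells, were lowest in neutrophils, where Tlr4 was highest. Cd180 averaged 75.1 and 128 CPM in CX3CR1+ macrophages on days 1 and 14 but 4.92 and 2.03 CPM in neutrophils, and Ly86 averaged 113 and 174 CPM against 4.21 and 2.29 CPM. The differences on day 14 were 5.99 (SE 0.28, adjusted p = 1.1e-10) and 6.28 (SE 0.25, adjusted p = 2.9e-11) on the log2 scale. In CX3CR1+ macrophages both were higher on day 14, by 0.77 and 0.63 (adjusted p = 0.016 and 0.025), under the fold threshold.

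For the endosomal receptors, Unc93b1, which carries them to endosomes, was highest in CX3CR1+ macrophages, at a day 1 mean of 433 CPM and a day 14 mean of 595 CPM. It averaged 327 and 290 CPM in CD9+ macrophages, and the difference on day 14 was -1.04 (SE 0.14, adjusted p = 5.4e-05). Of the 14 tested genes for folding, trafficking and endosomal processing, none rose over time. Decreases numbered 2, 3, 1 and 4 in CD9+ macrophages, CX3CR1+ macrophages, F4/80− cells and neutrophils. Of all 11998 tested genes, 418, 416, 269 and 1311 fell and 570, 287, 121 and 378 rose in the same order. The protease gene Ctsl, whose product cleaves endosomal receptors, fell by 1.90 in CD9+ and by 1.90 in CX3CR1+ macrophages and by 1.32 in F4/80− cells. Lgmn (asparagine endopeptidase), another such protease, fell in neutrophils from 24.7 to 30.9 CPM to 1.96 to 3.49 CPM (log2 fold change -3.37, SE 0.42, adjusted p = 2.8e-05).

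The lists of signalling genes are read against 10.9% of all tested genes lower in neutrophils and 2.24% to 3.48% lower in the other populations. Of 5 tested adaptors, 1 fell in neutrophils (Pik3ap1, log2 fold change -1.60) and 0 were called elsewhere. Myd88, the adaptor of all receptors studied here, was lower on day 14 by 0.94 in CD9+ and 0.82 in CX3CR1+ macrophages (log2 fold changes -0.94 and -0.82, adjusted p = 0.0024 and 0.0057), short of the fold threshold. Tirap, the adaptor that brings Myd88 to surface receptors, averaged 132 and 153 CPM in neutrophils on days 1 and 14 and 20.8 to 47.5 CPM in the other groups. Ticam1, the adaptor of Tlr3 and Tlr4 towards interferon, averaged 15.7 to 26.9 CPM over all 8 groups and was called in no comparison.

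Of the 18 tested kinases and ubiquitin ligases, Irak2 fell in CD9+ macrophages (log2 fold change -1.04, SE 0.21, adjusted p = 0.0041), close to the fold threshold. It stood there at 44.1 and 74.2 CPM on day 1 and at 30.1 and 27.2 CPM on day 14. In neutrophils Irak2 (-1.58), Map3k8 (-2.63) and Ikbke (-3.72) fell. No gene of this list was called in the other 2 populations. Of the 12 transcription factors, 5 fell in neutrophils, with Jun lowest at -2.82 (means 2220 and 313 CPM), and 0 were called elsewhere. The medians of these 2 lists were -0.06 and -0.83 in neutrophils.

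Of 18 tested feedback inhibitors, 7 fell in neutrophils and 0 rose, whereas 1 rose and 1 fell in CD9+ macrophages and in F4/80− cells, and 1 fell in CX3CR1+ macrophages. Tnfaip3 (A20), the deubiquitinase that ends NF-κB signalling, fell in neutrophils from a mean of 1400 CPM (SD 816) to 156 CPM (log2 fold change -3.17, SE 0.28, adjusted p = 9.6e-07) and rose in F4/80− cells from 197 to 489 CPM (1.31, SE 0.26, adjusted p = 0.0077). Irak3 (IRAK-M) fell in neutrophils from a mean of 496 to 216 CPM (-1.20) and had values of 0.15 to 0.29 in the other populations. Traf1 fell by 5.40 in neutrophils and by 1.72 in F4/80− cells, and Nfkbia by 1.29 in CX3CR1+ macrophages. In CD9+ macrophages Tnip1 fell by 1.03 and Il1rl1 rose by 1.33. Basophil and mast cell markers went in these CD9+ libraries from 119 and 66.9 CPM to 241 and 187 CPM, and eosinophil markers rose as well. The part of such cells in the rise of Il1rl1 was not tested.

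Among the endogenous ligands and the target genes of the receptors, some fell in every population. Of 12 tested ligand genes, 3, 4, 3 and 5 fell in CD9+ macrophages, CX3CR1+ macrophages, F4/80− cells and neutrophils, and 1 rose, in CD9+ macrophages, which left 8, 8, 9 and 7 not called (3.48%, 3.47%, 2.24% and 10.9% of all tested genes fell). Saa3, a serum amyloid A gene, fell from 490 and 477 counts to 14 and 7 counts in CD9+ macrophages (log2 fold change -5.35) and from 1781 and 1327 to 17 and 13 counts in CX3CR1+ macrophages (-5.77). In F4/80− cells it went from 143 and 132 counts to 1 and 3 counts. Tnc, the gene called higher in CD9+ macrophages, had 3 and 0 counts on day 1 and 29 and 53 counts on day 14. Stromal markers went in the same libraries from 4.6 and 3.8 CPM to 27.9 and 30.1 CPM. The part of stromal cells in the rise of Tnc was not tested. Hspa1a in neutrophils had 523 and 553 counts on day 1 and 10 and 1 counts on day 14.

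Of the 17 tested target genes, 13 fell in neutrophils, 8 in CD9+ macrophages, 6 in F4/80− cells and 5 in CX3CR1+ macrophages, with 0, 2, 1 and 1 higher. The medians of the target genes were -2.77, -1.27, -0.27 and -0.49. Of all 11998 tested genes, 1311, 418, 269 and 416 fell and 378, 570, 121 and 287 rose in the same order. Nos2, inducible nitric oxide synthase, went from 7314 and 7703 counts to 0 and 2 counts in neutrophils and from 2875 and 2695 to 14 and 9 counts in CD9+ macrophages. It also fell in CX3CR1+ macrophages, from 296 and 523 to 1 and 4 counts, and in F4/80− cells, from 557 and 1095 to 0 and 2 counts. The exceptions were the cytokine genes Ccl5 and Il6. Ccl5 rose by 2.86 in CD9+ and by 2.80 in CX3CR1+ macrophages (from 4 to 7 counts per library to 16 to 33 counts). T and NK cell markers went from 9.76 and 4.54 CPM to 24.5 and 22.2 CPM in CD9+ macrophages. In CX3CR1+ macrophages these markers stood at 0.571 and 1.36 CPM and at 0.697 and 1.67 CPM. The part of T and NK cells in the rise of Ccl5 was not tested. Il6 rose in CD9+ macrophages from a mean of 3.54 to 16.8 CPM (2.28, SE 0.31, adjusted p = 0.00018) and in F4/80− cells from 58.2 to 127 CPM (1.13, SE 0.25, adjusted p = 0.013).

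**Figure D5:**
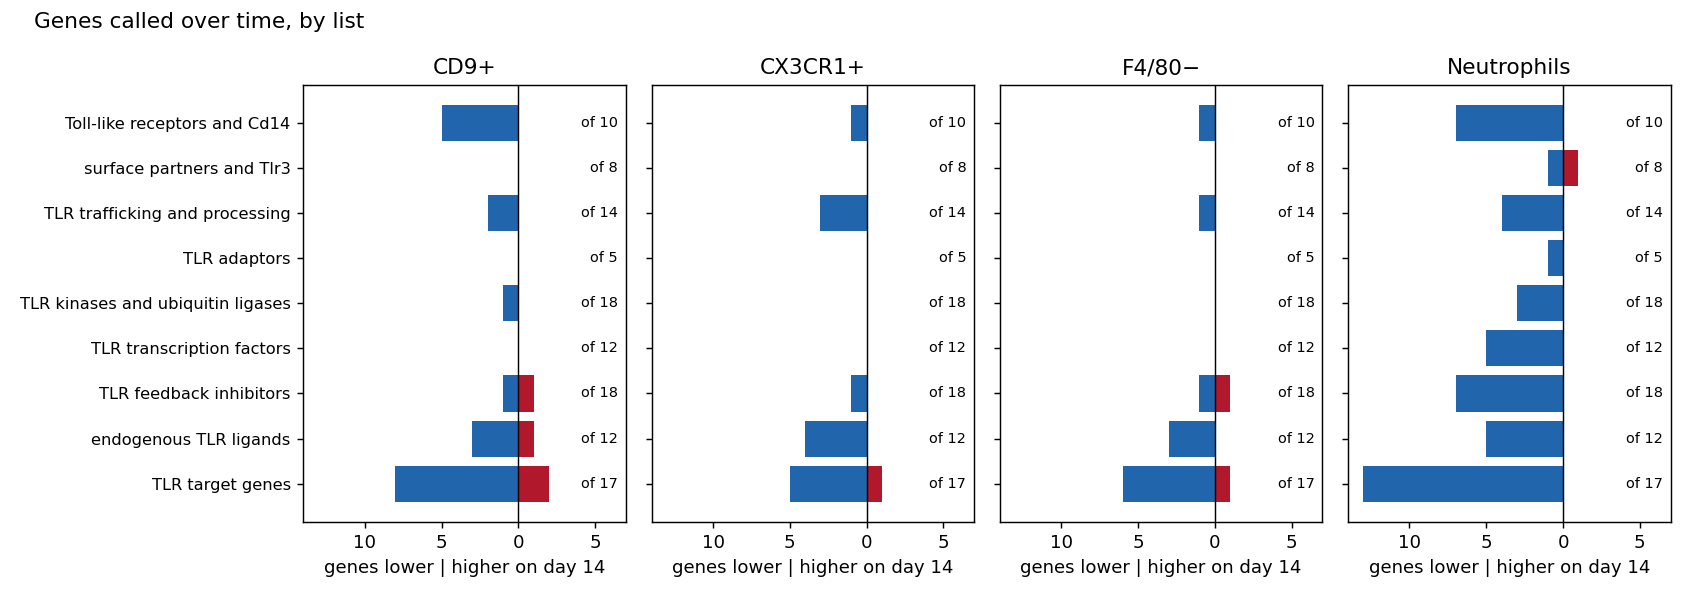
Number of genes lower (left of 0) and higher (right of 0) on day 14 in the 10 genes and in 8 lists of their pathway, with the number tested written at the right of each row. Neutrophils had the longest bar for target genes, with 13 of 17 lower, and the bars of adaptors, transcription factors and surface partners were empty in the other 3 populations.

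For each receptor gene, the tested genes with the highest Pearson correlation of log2 CPM over the 16 libraries were found as a description of its pattern. These libraries share populations and days, so that a high value marks a like layout over the groups only. The closest genes were Lrrc25 (r = 0.987) and Tpd52 (0.985) for Tlr2, Skil (0.983) and Rab32 (0.982) for Tlr4, Otulinl (0.982) and Filip1l (0.981) for Tlr9, and Fyb (0.981) and Oasl2 (0.981) for Tlr13. They were Asah1 (0.980) and Parp12 (0.962) for Tlr7, Fgr (0.979) and Pirb (0.977) for Tlr5, and Fhod1 (0.975) and Tnip1 (0.970) for Cd14. For the other 3 they were Zfp36 (0.968) and Fkbp15 (0.968) for Tlr6, Laptm4a (0.960) and Sirpb1a (0.940) for Tlr8, and Gm48065 (0.953) and P2ry6 (0.951) for Tlr1. Among the 10 genes themselves, Tlr2 and Tlr13 had the most similar pattern (r = 0.973) and Tlr5 and Tlr9 the least similar (r = -0.307).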

How the data were processed

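Per the study's methods, the authors made stranded paired-end SMART-Seq libraries, trimmed reads with Cutadapt, mapped with STAR to mm10, and deposited raw counts per gene of reads in Gencode exons. These counts carry no molecular identifiers.

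Genes with a group mean of at least 3 CPM in at least 1 group (11998 of 20200) entered 1 edgeR quasi-likelihood model of 8 group means without covariates (edgeR 4.0.16, R 4.3.3, TMM factors 0.752 to 1.16), with Benjamini-Hochberg adjustment over all of them. The SE was the absolute log2 fold change over the root of F. Alternatives were DESeq2 1.42.0, other scalings, filters and thresholds, a replicate block, no neutrophils, and leaving out each library. The fit was tested on simulated data. Gene models came from another Gencode release than the counts.

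The genes, lists, markers and tests were chosen with earlier results of these data known. Named pathway genes were Ly96, Cd180, Ly86, Unc93b1, Myd88, Tirap, Ticam1, Irak2, Irak3 and Tnfaip3 and, per list and population, the called genes with the highest and the lowest change whose days did not overlap. Map3k8 and the change of Il6 in CD9+ macrophages were chosen after their values were seen. No 2 libraries agreed within sampling noise. P-values measure the spread between 2 pools per group.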

Additional observations from a re-analysis of the deposited data

Results flagged for a closer look

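A difference between populations in the change from day 1 to day 14 was found for 8 of the 10 genes. The same test was passed by 14.7% of all tested genes. The adjusted p values of the interaction test in edgeR were 6.7e-05 for Cd14, 3e-04 for Tlr9, 0.00048 for Tlr5, 0.014 for Tlr2, 0.016 for Tlr1, 0.019 for Tlr6, 0.029 for Tlr4 and 0.047 for Tlr13. For Cd14, Tlr9, Tlr1, Tlr4, Tlr6, Tlr2 and Tlr13 neutrophils had a decrease of more than 1 on the log2 scale, and for Tlr5 the neutrophils differed from the other populations by not falling (log2 fold change 0.06). Tlr1, Tlr4, Tlr6 and Tlr13 did not pass in every fit that left out a library. With 2 libraries per group no single library could be tested as an outlier.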

How the results depend on the processing

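Of 160 pairs of a gene and a comparison, 149 had a difference above its SE and were followed. Most kept their sign and call. With library totals in place of TMM, the number of genes called was 5 for CD9+ against CX3CR1+ macrophages on day 1 and 5 for CX3CR1+ macrophages against neutrophils on day 1, and the differences of Tlr6, Tlr13 and Cd14 between CX3CR1+ macrophages and neutrophils on day 14 turned to 0.182, 0.108 and 0.118. A filter of 3 CPM in every group removed some of the 10 genes and left 2 calls over time in CD9+ macrophages, 0 in CX3CR1+ macrophages, 0 in F4/80− cells, 5 for CD9+ macrophages against F4/80− cells on day 1, 6 for CX3CR1+ macrophages against neutrophils on day 1, 3 for CD9+ macrophages against neutrophils and 1 for CX3CR1+ macrophages against neutrophils on day 14, and 5 interactions. Without a fold threshold the counts were 4 over time in CX3CR1+ macrophages, 2 in F4/80− cells and 7 for CD9+ against CX3CR1+ macrophages on day 1, and glmTreat left 0 in F4/80− cells over time.

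Leaving out each library in turn gave 4 to 5 calls over time in CD9+ macrophages, 1 in CX3CR1+ macrophages, 0 to 1 in F4/80− cells and 6 to 7 in neutrophils, and 4 to 9 interactions; the lone library of a group was assumed to vary like the others. On day 1 the ranges were 2 to 3 (CD9+ against CX3CR1+), 8 (CD9+ against F4/80−), 7 (CD9+ against neutrophils), 9 to 10 (CX3CR1+ against F4/80−), 9 to 10 (CX3CR1+ against neutrophils) and 9 (F4/80− against neutrophils). On day 14 they were 7, 4 to 6, 6 to 9, 9, 4 and 9 in the same order. Tlr2 in CD9+ against CX3CR1+ macrophages on day 1 turned to 0.059 without the first CD9+ library and was -0.771 without the second. The causes were not tested.

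Libraries of a day that share a replicate number carry the same label in their sample titles, and the paper pooled several mice for each sort. The total of mice given in the paper is too small for a separate pool behind each library, so that some libraries shared mice. The main fit did not model this sharing. Whether libraries with the same replicate number shared a pool was not tested. The correlations of their deviations were 0.0132 to 0.144, and 3 of 12 were above 0.1. Low correlations do not show that the pools were separate. Fitting a replicate block inside each day left 5, 1, 1 and 7 calls over time in CD9+ macrophages, CX3CR1+ macrophages, F4/80− cells and neutrophils, and 159 of 159 followed results kept their sign and call.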
